A study of Rattus norvegicus with 72 samples.

Results

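Genes of ribosome biogenesis and of RNA polymerase I were followed in the remaining left kidney after the right one had been removed from Sprague-Dawley rats, all adult males. The list held 34 genes, chosen by name for their role in making ribosomes, of 32545 genes in the deposited count tables. Of these, 33 had an entry, 32 had at least 1 count and 31 were abundant enough to be tested in each tissue. Rrn3, an initiation factor of RNA polymerase I, had no entry under that symbol. Nhp2, a core protein of the snoRNPs that guide pseudouridylation, had 0 counts in every library under both of its identifiers. Ebna1bp2, a large-subunit assembly factor, had 1 count over the dissected segments and 52 over whole kidney and was not tested. All groups share the strain, sex, age class and a diet of normal chow, and the labels name no genetic change. Surgery was a right nephrectomy or a sham operation in which the right renal pedicle was dissected and the kidney left in place. RNA was taken 24, 48 or 72 h later from 3 sources: glomeruli, the filters of the nephron, and S1 segments, where the proximal tubule begins, both microdissected, and the left kidney as a whole. Each of the 18 groups had 4 libraries, which the labels do not tie to separate rats. A p-value here therefore reflects how far libraries of a group differ, and some of that may be technical. All groups of a tissue share an estimate of this spread for each gene. A test at a single time thus also takes in the spread at the other times.

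Ribosomes are made in the nucleolus, where RNA polymerase I transcribes the ribosomal RNA precursor and many assembly factors fold, modify and cut it while ribosomal proteins are added. The work is divided between small nucleolar RNPs (snoRNPs), which modify the RNA, a processome that builds the small subunit and a series of particles that build the large subunit. Growth of the kidney that remains after loss of the other is known to involve more ribosomal RNA and protein per cell, and the transcription factor Myc is known to raise many of these genes through the DNA motif CACGTG.

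The starts of these genes carried 2 known motifs often. RefSeq promoters on GRCr8, from 250 bases before to 50 bases after the start, were found for 31 of the 34 genes. These are not the same 31 as the tested genes. They include Rrn3, Nhp2 and Ebna1bp2, which were not tested, and lack Wdr43, Bop1 and Rrs1, which were. CACGTG, the E-box bound by Myc and its relatives, stood in 9 of 31 (29%), among them Fbl, Nop2, Pes1, Gnl3 and Dkc1. It stood in 6.42% of all 33469 promoters in the table and in 7.01% of those of protein-coding genes. CCGGAAGT, a motif of ETS factors, stood on either strand in 13 of 31 (41.9%), among them Nop58, Polr1c, Polr1e and Ddx21, against 3.81% of all promoters and 4.78% of protein-coding ones. The E-box reads the same on both strands, and the letters of the motifs were searched without regard to overlap. Of the 31 promoters, 18 held at least 1 of the motifs, 4 held both and 13 held neither. Shown are the 250 bases before the start of Npm1, the 1 gene called between nephrectomy and sham in whole kidney, with neither CACGTG nor CCGGAAGT (chr10:18255742-18255991, minus strand), of Pes1, with an E-box at position -50 from the start (chr14:83074096-83074345, plus strand), and of Dkc1, with both motifs (chrX:157751401-157751650, plus strand). They run 5′ to 3′, and capitals mark CACGTG and CCGGAAGT or its reverse complement. These matches describe letters and not bound sites.
Npm1: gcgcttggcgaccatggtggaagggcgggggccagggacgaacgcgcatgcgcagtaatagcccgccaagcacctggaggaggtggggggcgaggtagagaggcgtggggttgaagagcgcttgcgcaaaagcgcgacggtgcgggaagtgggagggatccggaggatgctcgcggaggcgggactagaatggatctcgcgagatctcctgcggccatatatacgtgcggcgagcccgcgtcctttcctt
Pes1: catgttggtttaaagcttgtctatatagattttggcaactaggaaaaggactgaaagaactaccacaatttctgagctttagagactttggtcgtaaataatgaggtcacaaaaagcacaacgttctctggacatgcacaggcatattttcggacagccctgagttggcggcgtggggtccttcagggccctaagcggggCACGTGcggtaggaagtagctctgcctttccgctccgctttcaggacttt
Dkc1: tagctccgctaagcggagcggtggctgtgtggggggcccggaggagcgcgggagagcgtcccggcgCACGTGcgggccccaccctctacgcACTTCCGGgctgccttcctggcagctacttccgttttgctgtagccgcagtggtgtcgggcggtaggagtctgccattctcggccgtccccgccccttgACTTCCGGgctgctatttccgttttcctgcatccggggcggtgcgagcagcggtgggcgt

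Depth and identity of the libraries set the limits. Counts assigned to genes per library ran from 2643258 to 37408599 in glomeruli, 7883861 to 87368807 in S1 and 10102869 to 55517383 in whole kidney. The listed genes took 6567 to 54000, 4044 to 62036 and 5280 to 29778 of these counts. The sham 24 h libraries numbered 2 of both dissected segments were left out by the rule for these genes. On log2(CPM + 0.5), with CPM as a gene's share of the library's gene counts, the library labelled glomeruli had a mean of 2.76 over 8 podocyte markers and 10.07 over 9 proximal tubule markers. In the other 23 glomerulus libraries the podocyte mean was 9.08 to 10.42 and the proximal mean 2.65 to 5.75. The library labelled S1 had 9.41 and 6.32, against 1.07 to 3.32 and 7.54 to 10.03 in the other 23. Within groups, the spread of libraries, measured by the common biological coefficient of variation in edgeR, was 0.248 for whole kidney, against 0.63 for glomeruli and 0.713 for S1. Among whole kidney libraries of 24 h, nephrectomy replicates 3 and 4 and sham replicate 3 had podocyte marker means of 2.31, 2.69 and 2.93 on log2 CPM, and the other 5 had 3.72 or more. In bulk RNA fewer cells of a type and less RNA per cell cannot be told apart.

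In sham kidneys the genes covered a wide range of levels, with Ncl and Npm1 at the top in each tissue. Per length of transcript, Ncl (nucleolin, which binds the ribosomal RNA precursor) had 141 ± 88.8 RPKM in glomeruli (SD, n = 11 libraries) and 98.8 ± 76.7 in S1 (n = 11). It had 22.5 ± 9.66 FPKM in whole kidney (n = 12). Npm1 (nucleophosmin, a nucleolar chaperone) had 64.1 ± 13.8 and 48.7 ± 12.7 RPKM and 67.9 ± 23.4 FPKM in the same order. RPKM and FPKM correct for transcript length and depth, and they come from tables and kits that differ, so the order of genes is compared within a tissue. In the dissected segments the subunits of RNA polymerase I lay far lower and were not equal in level. In glomeruli Polr1c, a subunit shared with RNA polymerase III, had 18.6 ± 3.97 RPKM, Polr1a, the largest catalytic subunit, had 8.02 ± 0.92, Polr1e had 3.62 ± 0.59 and Polr1b, the second-largest, had 3.01 ± 0.58. The libraries of Polr1e (2.42 to 4.63 RPKM) and Polr1b (1.62 to 3.81) overlapped in range, and Polr1a lay above both. The order was the same in S1, with 10.1 ± 3.84, 3.78 ± 1.00, 1.57 ± 0.50 and 0.86 ± 0.16 RPKM. In whole kidney Polr1c had 14.1 ± 7.19 FPKM, rank 3 of the 31 genes and within an SD of Ncl. Polr1a had 4.45 ± 1.42 FPKM there. Polr1b (2.22 ± 0.59 FPKM) and Polr1e (1.80 ± 0.48) stood in the opposite order to the segments, again within their spread. The median over the 31 genes was 13.7 RPKM in glomeruli, 5.39 RPKM in S1 and 6.89 FPKM in whole kidney. In S1 27 of the 31 genes lay above the median of all genes tested, in glomeruli 29 and in whole kidney 22. Dkc1, the pseudouridine synthase of the H/ACA snoRNPs, was among the most variable in sham libraries of the segments: it ran from 8.59 to 81.7 RPKM in glomeruli and from 1.64 to 28.9 in S1.

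In the whole kidney none of the 31 genes was called higher after nephrectomy. A single gene, Npm1, was called lower, near the threshold, and most alternative settings lost this call. Over the mean of the 3 times Npm1 was lower by a log2 fold change of -0.35 ± 0.096 (SE; edgeR quasi-likelihood F test, Benjamini-Hochberg adjusted p = 0.0488 over all 15678 genes). Among all genes tested 448 were called, 2.86%, of which 265 were higher and 183 lower (1.69% and 1.17%). The median log2 fold change of the 31 genes was -0.064, beside -0.0069 for all genes, and 11 of 31 were above 0. For 30 of 31 genes the 95% interval of the mean effect lay within 1.5-fold either way, and for all 31 it lay within 2-fold; the same held for 70.2% and 89.7% of all genes tested. The widest of these intervals reached -0.72 (Ncl) on the low side and 0.55 (Gar1) on the high side. The plot of mean effects shows how much narrower the intervals are here than in the dissected segments.

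**Figure D1:**
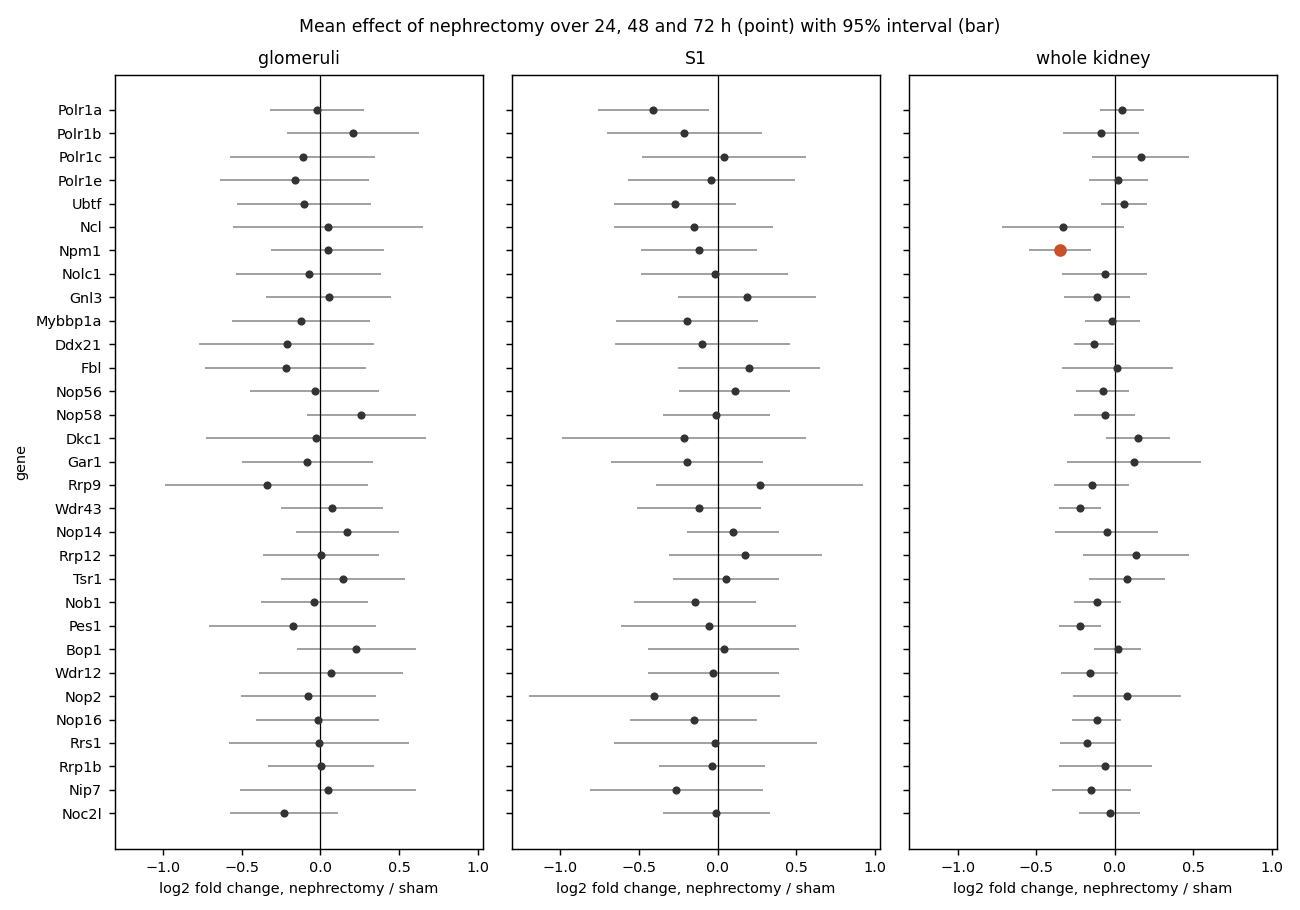
Log2 fold change (x axis) of each of the 31 genes (y axis) between nephrectomy and sham, as the mean over 24, 48 and 72 h, with its 95% interval, in glomeruli, S1 segments and whole kidney. The red point is Npm1 in whole kidney (-0.35), the 1 gene past an adjusted p of 0.05.

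The log2 fold change of Npm1 was below 0 at each time. Npm1 has processed pseudogenes that may share reads with it, so its counts are uncertain. At 24 h its level in whole kidney was 72.3, 71.3, 71.3 and 74.4 CPM after nephrectomy and 137, 57.4, 99.1 and 108 CPM in sham libraries. At 48 h it was 67.1, 70.2, 61.8 and 60.6 against 88.0, 67.8, 76.6 and 71.1 CPM. At 72 h it was 59.0, 48.7, 51.4 and 55.8 against 60.6, 67.8, 78.4 and 67.1 CPM. At 24 h 1 sham library lay under all of the nephrectomy libraries and the other 3 above them; at 48 h the groups overlapped, and at 72 h they did not. All 12 nephrectomy libraries lay below the sham mean of their time. The effect was -0.47 ± 0.17, -0.23 ± 0.17 and -0.35 ± 0.17 at 24, 48 and 72 h, and none passed alone (edgeR adjusted p = 0.228, 0.623 and 0.932). The call over the mean stands near the threshold: with each of the 24 libraries left out in turn the log2 fold change was -0.42 to -0.29. The call held without sham 24 h replicate 2 (edgeR adjusted p = 0.00539), nephrectomy 48 h replicate 2 (0.0497) or sham 72 h replicate 1 (0.0457). It was lost without any other library (0.0507 to 0.0972). With the replicate number as a block the effect was -0.33 and the call was lost (adjusted p = 0.0942), as it was with no filter on low counts (0.0593), without the 24 h libraries numbered 3 and 4 (0.0989) and in limma on log2(FPKM + 1) (0.861). At 24 h the libraries also differed in composition, with proximal tubule markers at a mean log2 CPM of 5.19 to 7.08 after nephrectomy and 6.10 to 8.58 in sham libraries, and the part of this in the result was not tested. Over 48 and 72 h alone the effect was -0.29 with an adjusted p of 0.0352.

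Wdr43 and Pes1 stood next. Wdr43, a subunit of the small-subunit processome, had 18.1, 19.7, 19.7 and 21.5 CPM after nephrectomy and 23.8, 23.7, 20.5 and 21.6 in sham libraries at 24 h. At 72 h it had 17.5, 15.7, 15.5 and 19.6 against 19.3, 20.4, 24.2 and 19.5 CPM. In both cases 1 nephrectomy library reached into the sham range, and at 48 h the groups overlapped (21.1, 18.4, 16.8 and 15.8 against 22.1, 21.5, 19.2 and 19.8 CPM). Its mean effect was -0.22 ± 0.065 (edgeR adjusted p = 0.0669). Pes1 acts with Bop1 and Wdr12 in the PeBoW complex, which large-subunit rRNA needs to mature. It had 19.2, 17.7, 24.3 and 16.9 CPM after nephrectomy at 24 h and 24.4, 22.4, 23.7 and 23.5 in sham libraries, and at 48 h 18.6, 18.6, 17.2 and 21.2 against 20.2, 19.8, 19.3 and 24.8 CPM. The groups overlapped at both times through 1 nephrectomy library. At 72 h it had 16.8, 16.5, 17.3 and 16.4 against 21.7, 19.6, 20.2 and 17.3 CPM. These groups lay apart by a margin that is small beside the spread of the sham libraries. Its mean effect was -0.22 ± 0.065 (edgeR adjusted p = 0.0683). The other members of the complex gave -0.16 ± 0.089 (Wdr12, adjusted p = 0.358) and 0.02 ± 0.073 (Bop1, 0.922). DESeq2 called Npm1, Wdr43 and Pes1, each lower. By edgeR 4 of the 31 genes had an unadjusted p under 0.05, beside 17.5% of all genes in either direction. All 4 were lower, and the share of lower genes alone was not set beside them.

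**Figure D2:**
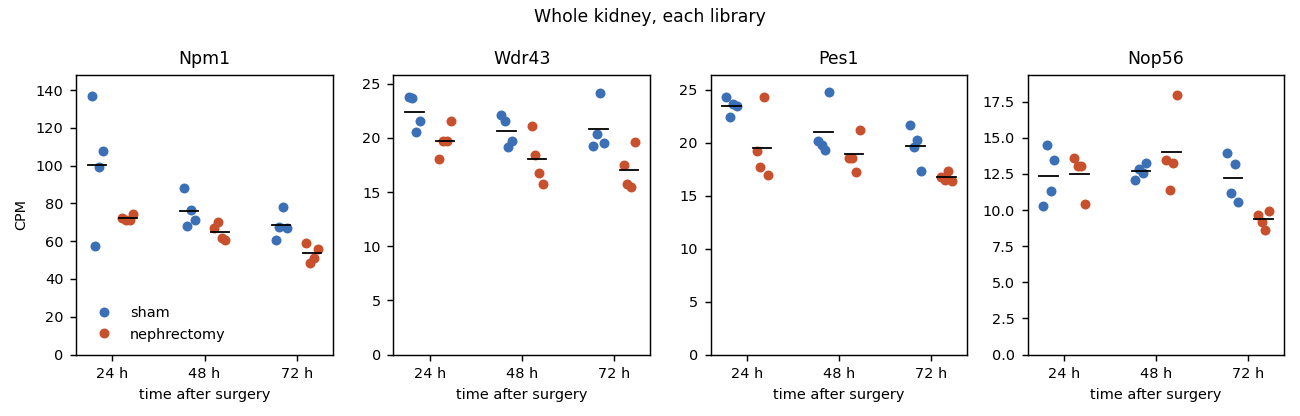
CPM (y axis, from 0) of Npm1, Wdr43, Pes1 and Nop56 in each whole kidney library at 24, 48 and 72 h (x axis), sham in blue and nephrectomy in red; bars are group means of 4 libraries. Npm1 after nephrectomy goes from means of 72.3 to 53.7 CPM between 24 and 72 h, and sham from 100.3 to 68.4.

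The transcription machinery itself was close to its sham level in whole kidney. Of the 5 genes of RNA polymerase I and its factors, 4 lay above 0 over the mean of the 3 times, with a median of 0.048. Polr1a had 27.4, 26.5, 26.0 and 24.8 CPM after nephrectomy and 26.0, 26.8, 25.1 and 25.3 in sham libraries at 72 h, and these ranges overlap throughout. Its mean effect was 0.05 with a 95% interval of -0.09 to 0.19. Ubtf, which opens the ribosomal RNA genes for the polymerase, gave 0.06 (-0.08 to 0.21) and Polr1e gave 0.02 (-0.16 to 0.21). Polr1b gave -0.09 (-0.33 to 0.16), and Polr1c, the least certain, gave 0.17 (-0.14 to 0.48). These intervals leave out a change of 1.5-fold either way for each of the 5 genes. Without the 24 h libraries numbered 3 and 4 Polr1c turned to -0.07.

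The snoRNP proteins showed no common direction over the mean of the 3 times. Fbl, the methyltransferase of the C/D class, gave 0.02 (95% interval -0.34 to 0.37), and its partners Nop56 and Nop58 gave -0.08 (-0.24 to 0.09) and -0.06 (-0.26 to 0.13). In the H/ACA class Dkc1 gave 0.15 (-0.06 to 0.35) and Gar1 0.12 (-0.30 to 0.55). All 6 nucleolar phosphoproteins and regulators lay below 0, from -0.35 to -0.015 with a median of -0.12. They are Ncl, Npm1, Nolc1, Gnl3, Mybbp1a and Ddx21. At 24 h alone 2 of the 6 lay above 0. Ncl gave -0.33 ± 0.19 (edgeR adjusted p = 0.372), and Ddx21, a nucleolar RNA helicase, -0.13 ± 0.062 (0.273). Of 9 large-subunit factors 2 were above 0 (median -0.11; Rrs1 -0.17 ± 0.085, adjusted p = 0.294), and of 6 small-subunit factors 2 (median -0.08; Nob1 -0.11 ± 0.072, adjusted p = 0.442).

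At 72 h most of the genes lay below their sham level, without a call for any of them. Of the 31 genes 8 had every nephrectomy library below every sham library (25.8%), beside 5.43% of all genes tested, and 0 had every one above (5.33% of all genes). They were Ncl, Npm1, Nolc1, Ddx21, Nop56, Rrp9, Nob1 and Pes1. The count depends on scaling: with library totals alone it was 4 (12.9%, beside 4.96% of all genes), namely Ncl, Nolc1, Nop56 and Npm1, and with RLE factors it was 7. With each of the 8 libraries left out in turn it was 8 to 11. The median log2 fold change was -0.15 (all genes 0.0011), and 5 of 31 genes were above 0. By edgeR 0 of 31 were called at 72 h, beside 1 of all 15678 genes (0.00638%); 5 of the 31 were at an unadjusted p under 0.05, all lower (5.2% of all genes, 2.2% lower), and DESeq2 called 0. The mean of log2 CPM over the 31 genes was 3.59 to 3.68 in the 4 nephrectomy libraries and 3.72 to 3.83 in the sham libraries, and these ranges do not overlap. At 24 h (3.73 to 4.20 against 3.48 to 3.96) and at 48 h (3.72 to 3.85 against 3.75 to 3.87) they did.

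Nop56, the C/D core protein, had the smallest p at 72 h. It had 9.65, 9.20, 8.63 and 9.93 CPM after nephrectomy and 14.0, 11.2, 13.2 and 10.6 CPM in sham libraries, a difference of -0.39 ± 0.14 (edgeR adjusted p = 0.779). At 24 h it had 13.6, 13.1, 13.0 and 10.4 against 10.3, 14.5, 11.3 and 13.4, and at 48 h 13.5, 11.4, 13.2 and 17.99 against 12.1, 12.9, 12.5 and 13.3 CPM. The groups overlapped at both earlier times, and the F test of its effect across times gave an adjusted p of 0.923 (unadjusted 0.0338). Nolc1, a chaperone of snoRNPs, had 32.6, 32.4, 30.5 and 29.9 against 39.95, 34.7, 37.7 and 34.8 CPM at 72 h (-0.23 ± 0.23, adjusted p = 1). Nob1, the nuclease that makes the last cut of the small-subunit rRNA, had 11.5, 11.6, 12.2 and 11.7 against 13.1, 14.0, 13.0 and 13.2 (-0.18 ± 0.12, adjusted p = 1). For Nop56, Nolc1 and Nob1 the nephrectomy values at 72 h end below the lowest sham value. For Nop56 and Nolc1 that margin was smaller than the SD of the sham libraries (1.61 and 2.52 CPM). Sham libraries of Nolc1 ran from 13.3 to 50.7 CPM at 24 h, and its SE at 72 h takes in that spread. Ncl had 35.4, 30.5, 31.6 and 32.3 against 59.9, 35.5, 48.5 and 36.0 CPM (-0.47 ± 0.33, adjusted p = 1), and the margin between its groups was small beside the spread of the sham libraries. Among the same libraries loop of Henle markers (6 genes) were higher after nephrectomy, at a mean log2 CPM of 7.50 to 7.73 against 7.27 to 7.44. Proximal tubule markers (9 genes) were at 7.45 to 7.77 against 7.60 to 8.37. The part of either in the lower levels of the 31 genes was not tested.

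**Figure D3:**
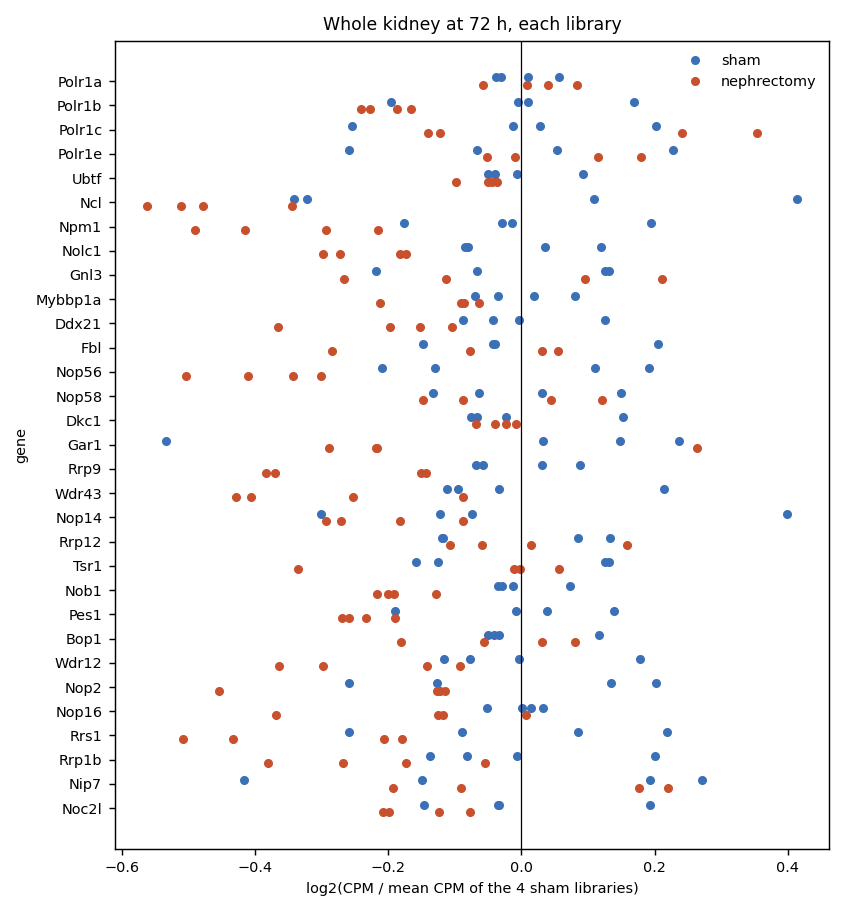
Whole kidney at 72 h: log2 of CPM over the mean CPM of the 4 sham libraries (x axis) for each of the 31 genes (y axis), with a point for each sham (blue) and nephrectomy (red) library. For 8 genes, such as Nop56 and Nob1, all red points lie left of all blue ones, and for none do they lie right of them.

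At 24 and 48 h edgeR called 0 of 31 genes in whole kidney, beside 37 (0.236%) and 0 of all genes. At an unadjusted p under 0.05 were 3 of 31, all lower, and 0 of 31 (12.9%, 8.03% lower, and 10.3% of all genes), and DESeq2 called 0 at each time. The 3 at 24 h were Npm1, Pes1 (-0.28 ± 0.11) and Nip7, a large-subunit factor (-0.45 ± 0.21). Nip7 had 5.93, 5.68, 7.23 and 6.36 CPM after nephrectomy and 14.2, 7.53, 5.78 and 6.82 in sham libraries, so its difference comes with a single high sham library, replicate 1. Noc2l was the 1 gene at 48 h with all nephrectomy libraries (17.3, 18.8, 18.5 and 17.7 CPM) below all sham libraries (20.1, 19.5, 20.4 and 19.7); 3.81% of all genes did so. Over the 3 times 13 of 31 genes had a log2 fold change below 0 at each time and 2 above 0 at each time. The shares of all genes that did so were not set beside these counts. Whether the effect differed between times was tested by an F test over the 3 times, which called 0 of 31 genes (all genes 0.0191%). Nop56 was the 1 gene at an unadjusted p under 0.05 (all genes 4.99%).

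**Figure D4:**
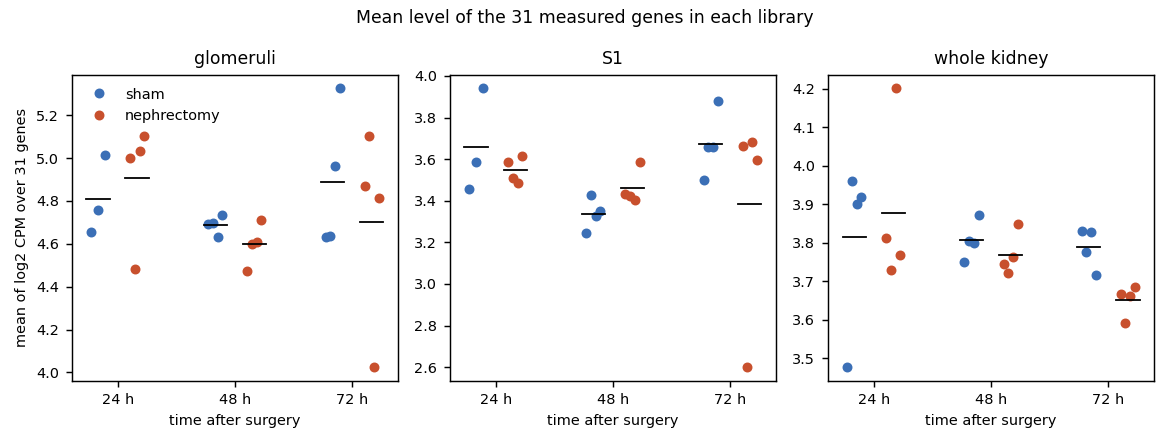
Mean of log2 CPM over the 31 genes (y axis) in each library at 24, 48 and 72 h (x axis) in glomeruli, S1 segments and whole kidney, sham in blue and nephrectomy in red, with group means as bars; each panel has its own axis, which does not start at 0. The whole kidney groups at 72 h lie apart (3.59 to 3.68 and 3.72 to 3.83), and 1 S1 nephrectomy library at 72 h lies at 2.60.

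In S1 segments no gene of the list was called at any time or over their mean (0 of 31 by edgeR in each case, beside 0% of 18372 genes, and 0 by DESeq2). Over the mean 1 of 31 had an unadjusted p under 0.05 (2.54% of all genes), and 0, 1 and 2 had one at 24, 48 and 72 h (0.729%, 1.96% and 13.2%). That gene was Polr1a, at -0.41 ± 0.17 (95% interval -0.76 to -0.05; adjusted p = 1). At 24 h it had 20.7, 27.7, 11.4 and 13.7 CPM after nephrectomy and 19.0, 22.6 and 21.4 in sham libraries. At 48 h it had 18.9, 20.8, 19.6 and 21.5 against 31.6, 25.5, 35.3 and 14.9, and at 72 h 15.4, 11.4, 14.7 and 13.0 against 19.4, 30.4, 15.6 and 18.8 CPM. The groups were apart only at 72 h, where 0.495% of all genes had every nephrectomy library below every sham library, and the nearest pair lay close. Ubtf gave -0.27 (-0.66 to 0.12), and Polr1b, Polr1c and Polr1e gave -0.21 (-0.71 to 0.28), 0.04 (-0.48 to 0.56) and -0.04 (-0.57 to 0.49).

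At 24 h in S1 Bop1 had 6.59, 5.10, 5.01 and 6.35 CPM after nephrectomy and 4.41, 4.53 and 3.97 in sham libraries, above in every library as for 1.81% of all genes (0.42 ± 0.43, edgeR adjusted p = 1). Nop56 in S1 at 48 h also stood above. It had 18.4, 19.0, 16.0 and 23.5 CPM after nephrectomy and 10.3, 15.1, 10.3 and 11.8 in sham libraries, a difference of 0.70 ± 0.29 (edgeR adjusted p = 1), with the groups apart. Nolc1 also lay apart and above at that time, with 38.5, 39.1, 34.7 and 40.9 against 33.8, 29.0, 24.3 and 33.1 CPM, and 2.92% of all genes did so. The median of the 31 genes was 0.15 at 48 h (all genes -0.050), with 22 of 31 above 0. It was -0.12 at 24 h and -0.20 at 72 h (all genes 0.021 and 0.13). Single libraries moved these medians. With a library left out the median at 24 h was -0.23 (without sham replicate 1) to -0.01 (without sham replicate 4), and -0.04 without nephrectomy replicate 1. At 48 h it was 0.12 to 0.28 (without sham replicate 4), and 0.25 without nephrectomy replicate 1. At 72 h it was -0.30 without sham replicate 1, and leaving out a nephrectomy library gave -0.50 (replicate 1), -0.35 (replicate 3) or -0.02 (replicate 2). The last of these libraries had the lowest mean level of these genes and the fewest gene counts in S1 (7883861). Nop2, an rRNA methyltransferase, was listed at 0 CPM in that library and at 2.32, 1.32 and 0.89 CPM in the other 3, against 2.15, 2.57, 4.01 and 4.08 in sham libraries (-1.43 ± 0.66, edgeR adjusted p = 0.361). Over the mean of the 3 times 15 of 31 intervals lay within 1.5-fold and 30 within 2-fold (26.4% and 51.2% of all genes). Ncl (-0.15, -0.66 to 0.35), Npm1 (-0.12, -0.49 to 0.25), Fbl (0.20, -0.26 to 0.65) and Dkc1 (-0.21, -0.99 to 0.56) had intervals on both sides of 0. For the genes whose interval passes 1.5-fold, these data do not exclude a change of that size in S1. The 2 genes with p under 0.05 at 72 h were Nop2 and Polr1a.

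Glomeruli gave 0 of 31 genes called at each time and over the mean (edgeR, beside 0% of 22405 genes; 0 by DESeq2), with 0 of 31 at an unadjusted p under 0.05 over the mean (2.11% of all genes). The median effect was -0.02 (all genes -0.0034) with 13 of 31 above 0, and 20 intervals lay within 1.5-fold and 31 within 2-fold (26.9% and 52.3% of all genes). Nop58, the C/D partner of Nop56, had the smallest p, at 0.26 (95% interval -0.09 to 0.61). Ncl gave 0.05 (-0.56 to 0.65), Npm1 0.05 (-0.32 to 0.41), Nop56 -0.04 (-0.45 to 0.37) and Fbl -0.22 (-0.73 to 0.29). Polr1a gave -0.02 (-0.32 to 0.28), Polr1b 0.21 (-0.21 to 0.62), Polr1c -0.11 (-0.58 to 0.35), Polr1e -0.16 (-0.64 to 0.31), Ubtf -0.10 (-0.53 to 0.32) and Dkc1 -0.03 (-0.73 to 0.67). By time, 0, 0 and 1 genes had an unadjusted p under 0.05 at 24, 48 and 72 h (0.919%, 1.36% and 2.9% of all genes).

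The 1 gene at 72 h in glomeruli was Nob1, with 18.7, 20.3, 16.6 and 16.4 CPM after nephrectomy and 14.3, 31.3, 34.3 and 30.6 in sham libraries (-0.61 ± 0.28, edgeR adjusted p = 1). A single sham library was low and the other 3 stood above all nephrectomy libraries. At 24 h Wdr43 had 71.2, 56.1, 53.0 and 56.2 CPM against 51.4, 46.4 and 39.5, above in every library, as for 1.43% of all genes. At 48 h Pes1 (19.0, 20.6, 30.3 and 29.5 against 32.2, 39.0, 32.8 and 34.8 CPM) and Mybbp1a, a nucleolar binding partner of Myb (44.9, 45.4, 44.8 and 44.2 against 63.4, 56.0, 48.5 and 67.7), lay below in every library, as for 1.29% of all genes. The median was 0.15 at 24 h (24 of 31 genes above 0) and -0.17 at 72 h (9 of 31). The median at 24 h was -0.05 with the left-out sham library kept, and with a library left out it was -0.10 (without sham replicate 1) to 0.29 (without nephrectomy replicate 2). It was also 0.28 without sham replicate 4, 0.06 without nephrectomy replicate 3 and 0.05 without sham replicate 3. At 72 h leaving out a nephrectomy library gave -0.30 (replicate 2), -0.05 (replicate 4) or -0.0038 (replicate 3). Replicate 3 had a mean log2 CPM over the 31 genes of 4.03, beside 4.81 or more in the other nephrectomy libraries. It also had the fewest gene counts of the glomerulus libraries (2643258). Without sham replicate 4 the median was 0.10. The mean effects in glomeruli and S1 did not differ beyond their error for any gene (edgeR: 0 of 31 called, 0% of 24488 genes; 0 at an unadjusted p under 0.05, 2.54% of all genes; DESeq2: 0). The smallest p was that of Polr1a, whose effect was 0.39 higher in glomeruli (95% interval -0.14 to 0.92).

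Between the segments of sham rats 11 of the 31 genes differed, all lower in glomeruli than in S1 on TMM scaling, and this direction depends on the scaling. On TMM scaling 18.6% of all genes were lower and 21.1% higher in glomeruli (39.7% called of 24488). The 4 with the smallest p were Npm1 (-1.40 ± 0.22; edgeR adjusted p = 7.09e-07), Nob1 (-0.96 ± 0.21; 0.00019), the nucleolar GTPase Gnl3 (-0.996 ± 0.25; 0.000828) and Rrs1, a large-subunit factor (-1.23 ± 0.32; 0.00124). Npm1 ran from 29.0 to 70.5 CPM with a median of 39.0 in the 11 glomerulus libraries and from 65.2 to 175 with a median of 89.5 in the 11 S1 libraries. The ranges overlap between 65.2 and 70.5 CPM. Tsr1, Ncl, Polr1a, Polr1c, Wdr12, Nop56 and Bop1 were the other 7. Among genes above 0 the smallest p values were those of Ubtf (0.29 ± 0.22), Rrp9 (0.34 ± 0.33), Rrp1b (0.17 ± 0.20) and Rrp12 (0.16 ± 0.23), none called. TMM factors of these libraries ran from 0.34 to 2.46, and with library totals alone 30 genes were higher in glomeruli and 0 lower, Npm1 at 0.38. RLE factors gave 2 higher and 6 lower, and DESeq2 2 and 7. The median of the 31 genes set against that of all genes moved less: it was lower by 1.03 on TMM scaling (-0.34 against 0.69), by 1.04 with RLE factors (-0.05 against 0.99) and by 0.97 with library totals (1.40 against 2.37). This difference was -0.66 with the left-out pair kept and -1.27 with the replicate number as a block.

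The wider pathway of ribosome production also gave few calls in whole kidney, while most genes of DNA replication rose. Over the mean of the 3 times 0 of 13 further genes of RNA polymerase I and its factors were called (median -0.07; smallest p Twistnb, a polymerase subunit, -0.27 ± 0.091, edgeR adjusted p = 0.112). Of 51 further small-subunit factors 0 were called (median -0.10; Mphosph10 -0.32 ± 0.095, adjusted p = 0.0683), and 13 had an unadjusted p under 0.05, all lower (17.5% of all genes in either direction, with 2.86% called). Of 51 further large-subunit factors 1 fell, Nsa2 (-0.42 ± 0.094, edgeR adjusted p = 0.0183), and the list median was -0.09. In this list 15 had an unadjusted p under 0.05, 14 of them lower (17.5% of all genes in either direction). For neither subunit list was the share of lower genes alone set beside the count. None was called of 13 snoRNP partners (median -0.10), 24 exosome and trimming genes (-0.11; Xrn2 -0.25 ± 0.073, adjusted p = 0.0667), 15 genes of RNA polymerase III (-0.09) and 11 of the Myc network (-0.10). Of 64 cytosolic ribosomal protein genes 1 fell, Rpl35 (-0.47 ± 0.091, adjusted p = 0.0114; list median -0.11). Ribosomal protein genes, like Npm1, have processed pseudogenes that may share reads with them, so their counts are uncertain. In contrast 18 of 24 genes of DNA replication and mitosis rose (1.69% of all genes did), with a median of 1.08. Among them were the helicase subunit Mcm6 (1.04 ± 0.17, edgeR adjusted p = 0.007) and Ccne1, a cyclin of entry into S phase (1.40 ± 0.24, 0.00792). The difference between the lists was not tested. In glomeruli and S1 no gene of these lists was called by edgeR. In S1 the median of the replication list was 0.66 with 9 of 24 at an unadjusted p under 0.05 (2.54% of all genes), beside -0.04 for the 31 genes.

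**Figure D5:**
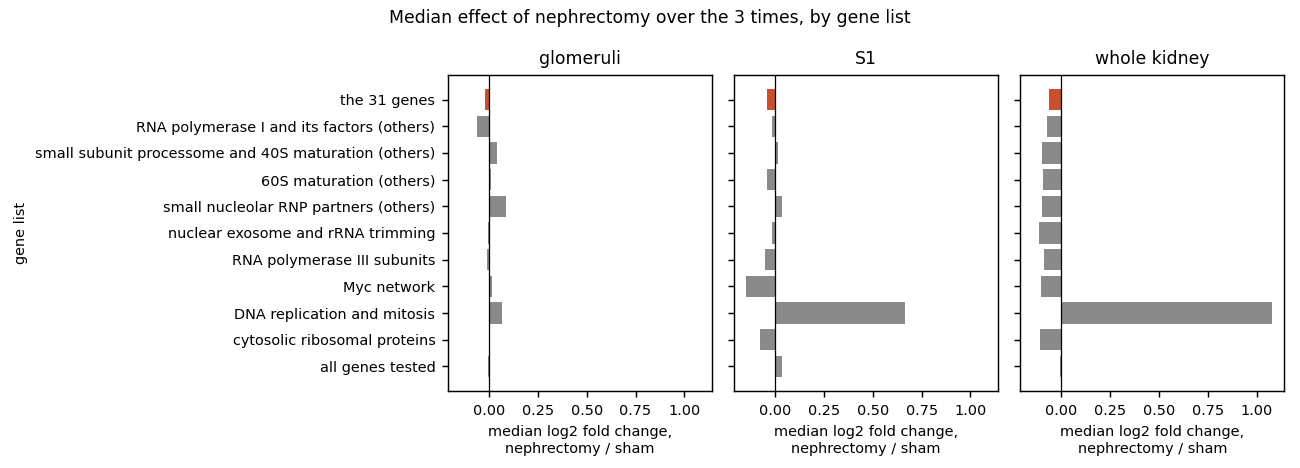
Median log2 fold change between nephrectomy and sham over the 3 times (x axis) of the 31 genes (red), of the other gene lists and of all genes tested (grey) in glomeruli, S1 segments and whole kidney. In whole kidney the lists of ribosome production lie between -0.11 and -0.06 and the list of DNA replication and mitosis at 1.08.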

How the data were processed

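RNA was sequenced from 72 libraries. The deposited tables give a raw count of reads for each gene. The submitters' processing notes name HTSeq, SAMtools, STAR 2.4.0.1 and Trimmomatic 0.32. Build, annotation and strand setting: not given in the sources used here. Overlapping or duplicated genes may therefore share reads. The authors also deposited RPKM values (segments) and FPKM values (whole kidney), used here for levels and for a limma alternative on log2(value + 1). Per the labels' protocols, NuGEN Ovation kits amplified the segment RNA and TruSeq Stranded kits served for whole kidney.

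In R 4.3.3, edgeR 4.0.16 was fitted to 23 glomerulus, 23 S1 and 24 whole kidney libraries with a mean for each group, TMM factors and filterByExpr (minimum count 10). HTSeq's 5 summary entries were left out. Quasi-likelihood F tests compared nephrectomy with sham, with Benjamini-Hochberg adjustment over all genes tested and a threshold of 0.05; 46 segment libraries were fitted together to compare segments. CPM values carry the TMM factors of these fits. Alternatives used DESeq2 1.42.0, limma 3.58.1, RLE factors, no filter, the compared groups fitted alone and left-out libraries. The fit was tested on simulated data.

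The labels do not say what replicate numbers mark. The deviations of same-numbered nephrectomy and sham libraries from their group means correlated over 0.1 in 6 of 12 pairs in whole kidney (-0.165 to 0.337), 2 of 11 in glomeruli (-0.328 to 0.444) and 7 of 11 in S1 (-0.216 to 0.538), and those of glomeruli and S1 in 16 of 23. Every pair did at 72 h in whole kidney (0.114 to 0.337) and at 24 h (0.138 to 0.538) and 48 h (0.164 to 0.269) in S1. The fits treat libraries as independent; a fit with the replicate number as a block is an alternative, and at those times it also called 0 of the listed genes.

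The genes, lists and tests were chosen with earlier results of these data known. Named by rule were Ncl, Npm1, Fbl, Nop56, Polr1a, Polr1b, Polr1c, Polr1e, Ubtf, Rrn3 and Dkc1; in each tissue the 8 genes with the smallest p over the mean of 3 times and the 3 at each time; 4 of each sign between segments; and up to 4 of each other list. Others were named after their values were seen, for a role or because their groups did not overlap, and some that the rule names are given only in counts.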

Additional observations from a re-analysis of the deposited data

Results flagged for a closer look

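A library stood apart from the other 3 of its group in the mean log2 CPM of the 31 genes in 4 groups, by Dixon's ratio of the gap to the range. In S1 nephrectomy at 72 h replicate 2 was at 2.60 and the others at 3.59 or above. This replicate had the fewest gene counts in S1. The ratio for its group was 0.917. It was 0.875 for whole kidney sham at 24 h (replicate 1 at 3.48, the others at 3.90 or above), 0.835 for glomeruli nephrectomy at 24 h (replicate 2 at 4.48, the others at 5.002 or above) and 0.834 for S1 nephrectomy at 48 h (replicate 4, high at 3.59). Single genes gave more such sets than are listed here. Nop2 in S1 nephrectomy at 24 h had a ratio of 0.847 (replicate 2 at 5.70 CPM). Pes1 in whole kidney sham at 48 h had 0.844 (replicate 4 at 24.8 CPM). Rrp12 in S1 nephrectomy at 72 h also had a library apart, with 8.42 CPM in replicate 3 and 4.77 to 4.85 CPM in the others. Chance alone marks about 1 in 20 groups in this way.

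Pes1 at 48 h stood on opposite sides of the sham mean in the segments. Every glomerulus nephrectomy library lay below the sham mean (log2 fold change -0.48) and every S1 nephrectomy library above it (0.13). The difference at 48 h alone was not tested.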

How the results depend on the processing

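The spread between libraries limits the dissected segments, where many intervals reach 1.5-fold. Of 380 recomputed counts of genes called, 351 were within 1.5 times the value reported. Most of the reported counts are 0. Between nephrectomy and sham in the segments almost no gene of all tested passed, so those counts had little room to move. Of 2001 recomputed values for named genes 25 lost a call, 19 gained one and 92 changed sign. All but 4 of these sign changes were in values called under neither setting. In whole kidney over the mean of the 3 times the count of genes called, 1 as reported, was 3 in DESeq2, 0 with no filter on low counts, 0 in limma on log2(FPKM + 1), 2 without the 24 h libraries numbered 3 and 4, and 0 to 3 with a library left out (3 without sham 24 h replicate 2). The count for all genes was 865 in DESeq2, 0 in limma (910 at an unadjusted p under 0.05), 785 without those 24 h libraries and 242 to 1068 with a library left out. At 24 h the count was 2 (1 higher, 1 lower; 2645 of all genes) without the libraries numbered 3 and 4, and 0 to 1 with a library left out (1, Npm1, without sham 24 h replicate 2). The difference between times gave 1 gene without them. The 8 genes below every sham library at 72 h were 4 with library totals and 8 to 11 with a library left out. Between sham segments the 11 genes were 30 with library totals, 5 with the left-out pair kept and 8 to 14 with a library left out; on library totals Npm1 (0.38), Nob1 (0.76), Gnl3 (0.79) and Rrs1 (0.42) reversed. The causes were not tested. Library totals and the counts of genes below every sham library were alternatives chosen after seeing the data.

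With the replicate number as a block, 0 genes were called in whole kidney over the mean of the 3 times (Npm1 adjusted p = 0.0942), and no other count of listed genes changed beyond 1.5 times.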
